A study of Homo sapiens with 12 samples.

Results

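Between day 7 and day 15, H7 cells labelled E2A-/- gained RNA of heart muscle, calcium-handling and glycolysis genes and lost RNA of mitosis, pluripotency and NOTCH genes. H7 is a human embryonic stem cell line, and in this series it was driven towards cardiomyocytes, the contracting cells of the heart. The comparison takes the 2 libraries titled day 15 knockout and the 2 titled day 7 knockout, 4 of the 12 RNA-seq libraries of the series, chosen by title alone. Both of these groups carry the genotype E2A-/- and are labelled as cardiomyocytes made from embryonic stem cells. The wild-type H7 libraries at day 7 and day 15, 2 per group, are used to set the knockout course beside the unedited one, and the 4 day 3 libraries, 2 wild type and 2 E2A-/-, are labelled cardiac mesoderm and entered only the filter on low values and the shared estimate of spread. The labels do not give the position of the edit, the number of edited clones, or whether replicates came from separate cultures, so p-values here measure the spread between these libraries, which may be technical.

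E2A is the older name of TCF3, which encodes basic helix-loop-helix proteins (E proteins) that bind the DNA letters CANNTG, called the E-box, usually as dimers with a tissue-restricted partner. ID proteins pair with E proteins and keep them off DNA, and TCF4 and TCF12 encode close relatives. As stem cells become heart muscle they leave the pluripotent state, pass through mesoderm and a cardiac progenitor, and build sarcomeres, the repeating units of myosin thick filaments, actin thin filaments and Z-discs. Young cardiomyocytes still divide and rely on glycolysis. Later they add slow myosin, calcium-release and energy-transfer proteins, divide less, and draw more of their ATP from mitochondria.

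Values are taken as FPKM, fragments scaled to transcript length and library size, a unit inferred from the values themselves. Changes are differences of log2(FPKM + 1), which understate the change of low genes. Each change is given with the standard error of limma, a linear model fitted across all genes, and a Benjamini-Hochberg adjusted p over the 16295 genes tested, called where it was below 0.05. TCF3, the targeted gene (chr19:1609290-1652605, minus strand, GRCh38), was read in every library. In the knockout-labelled libraries its day 3 values were 146 and 148 FPKM, its day 7 values 179.9 and 172 and its day 15 values 169.7 and 108, against 179.5 and 149, then 135 and 138, then 74.4 and 98.2 in the wild type. TCF3 RNA was therefore not lower in the libraries labelled knockout at day 7 or day 15, and these levels do not check the labels. Its change from day 7 to day 15 did not pass the test (-0.37 ± 0.19, adjusted p = 0.178), though without day 15 replicate 1 it did, at -0.69. TCF4 stood at 70.5 and 42.1 FPKM at day 7 and 94.3 and 65.1 FPKM at day 15, a change of 0.52 ± 0.24 that passed only without day 7 replicate 1 among the 4 leave-one-out fits, at 0.88. TCF12 stood at 49.1 and 41.1 FPKM at day 7 and 56.2 and 35.3 FPKM at day 15 and was not called (adjusted p = 0.98).

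Mitochondrially encoded genes took 20.2% and 18.5% of the summed FPKM in the knockout-labelled libraries at day 7 and 13.9% and 14.3% at day 15, against 8.55% and 8.14%, then 26.1% and 26.2%, in the wild type. The day 15 knockout replicates were the least alike of the 6 groups, with a Pearson correlation of 0.970 across genes and 597 genes differing at least 2-fold between them, where the other groups had 165 to 313. In the course from day 7 to day 15, 4628 of 16295 genes were called (28.4%), 2168 higher (13.3%) and 2460 lower (15.1%), and the median change over all genes was -0.03. The shares of 13.3% higher and 15.1% lower are the background for every list count below. A list near them is not set apart from all genes by its count. Changes of at least 2-fold were called for 1493 genes (9.16%), 779 upward (4.78%) and 714 downward (4.38%). Whatever the test, both day 15 libraries lay above both day 7 libraries in 4668 genes (28.6%) and below both in 5155 (31.6%). In bulk RNA, fewer cells of a type and less RNA per cell cannot be told apart, and this holds for every gene below.

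Most genes of the contractile apparatus rose. Of 37 genes listed for the thick filament, thin filament and Z-disc, 28 were tested, 21 were higher at day 15, 1 was lower and 6 were not called, with a median change of 1.19 against -0.03 over all genes. MYL2, MYL3, MYBPC3 and CSRP3 were not analysed here.

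The thick filament is built of myosin. Its heavy chain MYH7 (chr14:23412738-23435718, minus strand), the slow or beta myosin heavy chain that marks ventricular and maturing muscle, measured 0.551 and 0.635 FPKM at day 7 and 29.9 and 21.9 FPKM at day 15. It was all but silent in both day 7 libraries and clearly present in both day 15 libraries, a change of 4.06 ± 0.17 (adjusted p = 5.52e-07). Its neighbour MYH6, the alpha myosin heavy chain of atrial and young muscle, measured 555 and 463 FPKM at day 7 and 959 and 786 FPKM at day 15. MYH6 was already abundant at day 7 and rose less, by 0.77 ± 0.13 (adjusted p = 0.00151), so that at day 15 its value was still far above that of MYH7. The sequences of the MYH6 and MYH7 transcripts are close, and how reads shared between them were counted is not given in the sources used here. MYOM1, which ties thick filaments together at the M-band, measured 3.71 and 4.31 FPKM at day 7 and 37.8 and 42 FPKM at day 15, with no overlap between the days (3.03 ± 0.16, adjusted p = 1.22e-06). MYL7, the atrial regulatory light chain, measured 301 and 304 FPKM at day 7 and 1350.0 and 1204 FPKM at day 15, and MYL4, its essential partner, 214 and 213 FPKM at day 7 and 550.2 and 522 FPKM at day 15. Both light chains rose several-fold from a level that was already high. In all, 6 of 8 thick-filament genes were higher and none lower.

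In the thin filament, 7 of 9 genes were higher and 1 was lower, with a median of 1.05. TNNT2, the cardiac troponin that fixes the troponin complex to tropomyosin, measured 237 and 182 FPKM at day 7 and 1070.5 and 735 FPKM at day 15, and every day 15 value was above every day 7 value (2.09 ± 0.21, adjusted p = 6.99e-05). Cardiac troponin C, TNNC1, rose from 51.6 and 49.8 to 238 and 249.7 FPKM, and the cap protein of the pointed filament end, TMOD1, from 4.58 and 4.25 to 26.7 and 29.7 FPKM. The inhibitory troponins moved apart. TNNI1, the slow skeletal and fetal form, measured 81.1 and 114 FPKM at day 7 and 300.5 and 268 FPKM at day 15 (1.55 ± 0.22, adjusted p = 0.000571), whereas TNNI3, the adult cardiac form, measured 32.1 and 33.8 FPKM at day 7 and 25 and 29 FPKM at day 15 and did not pass (-0.28 ± 0.11, adjusted p = 0.094), though without day 15 replicate 2 it was called lower at -0.38. TNNT1, the slow skeletal troponin T, was the 1 gene that fell, from 94.3 and 88.2 to 42.1 and 41.4 FPKM (-1.11 ± 0.11, adjusted p = 5.94e-05). Cardiac actin, ACTC1, measured 201 and 173 FPKM at day 7 and 478 and 313 FPKM at day 15. Its change of 1.05 ± 0.26 was called (adjusted p = 0.0143) but not without day 7 replicate 2 (0.94) or day 15 replicate 1 (0.74), and actin transcripts share sequence with one another.

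Among Z-disc genes 8 of 11 were higher and none lower (median 0.89). The higher calls came to 6 with array weights and to 5 in a fit on the 4 libraries alone. ACTN2, the alpha-actinin that cross-links thin filaments at the Z-disc, measured 15.2 and 12.9 FPKM at day 7 and 91.3 and 70.2 FPKM at day 15 (2.43 ± 0.33, adjusted p = 0.000439). LDB3 and NEXN, both Z-disc linkers, rose by 2.11 ± 0.18 and 2.4 ± 0.28. TTN, the giant spring of the sarcomere, measured 16.4 and 11.9 FPKM at day 7 and 22.7 and 31.6 FPKM at day 15, and its call (adjusted p = 0.0273) was lost without day 7 replicate 2 (0.67) or day 15 replicate 2 (0.66). Desmin, DES, which links Z-discs into a lattice, stayed low at 2.66 and 2.15 FPKM at day 7 and 3.94 and 3.8 FPKM at day 15 and was not called (adjusted p = 0.0764).

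**Figure D1:**
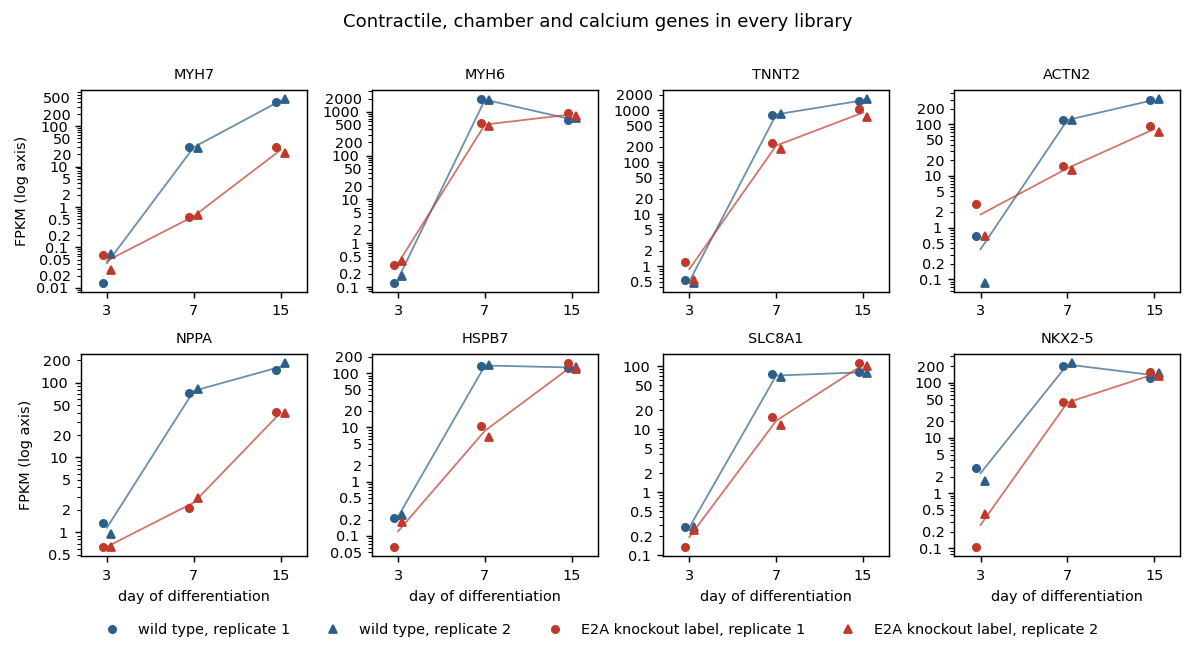
Level in FPKM (log axis) of 8 heart muscle genes against day of differentiation, each point 1 library (circle replicate 1, triangle replicate 2), knockout-labelled in red and wild type in blue, lines joining group means. In each panel both red points at day 15 lie above both at day 7; MYH7 goes from 0.551 and 0.635 to 29.9 and 21.9 FPKM, and in MYH6 the blue line falls where the red one rises.

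Calcium-handling genes rose with the sarcomere: 8 of 9 were higher and none lower, with a median change of 2.18. SLC8A1, the sodium-calcium exchanger that removes calcium after each beat, measured 15.5 and 11.7 FPKM at day 7 and 109.8 and 99.9 FPKM at day 15, with both later values well above both earlier ones (2.87 ± 0.15, adjusted p = 1.22e-06). The calcium-release channel RYR2 measured 2.81 and 1.97 FPKM at day 7 and 14.1 and 14.4 FPKM at day 15, and the pore of the L-type calcium channel, CACNA1C, 2.54 and 3.41 FPKM at day 7 and 17.6 and 18.5 FPKM at day 15. Triadin, TRDN, which anchors the release complex, rose by 2.78 ± 0.26, and the L-type channel's beta subunit CACNB2 by 2.43 ± 0.17. The calcium pump ATP2A2 did not follow. It measured 119.8 and 111 FPKM at day 7 and 122 and 117 FPKM at day 15, and the groups overlapped (adjusted p = 0.721). PLN and CASQ2 were not analysed here.

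Of 12 ion channel genes, 5 were higher and none lower. HCN4, the pacemaker current channel of the sinus node and of early heart muscle, measured 5.64 and 4.74 FPKM at day 7 and 28.4 and 22.3 FPKM at day 15 (2.08 ± 0.16, adjusted p = 1.75e-05). KCNJ5, a subunit of the acetylcholine-gated potassium channel, rose from 3.77 and 2.71 to 23.3 and 13.6 FPKM. KCNH2, a repolarizing potassium channel, changed by 0.25 ± 0.17 without passing.

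Most heart transcription factors rose. Of 14 tested, 8 were higher and 1 lower (median 0.99). NKX2-5, a core regulator of heart muscle identity, measured 44.8 and 42.5 FPKM at day 7 and 155 and 131 FPKM at day 15, and TBX5, needed for atria and the left ventricle, 4.72 and 4.29 FPKM at day 7 and 26.7 and 17.1 FPKM at day 15. Both were higher in each day 15 library than in either day 7 library (1.68 ± 0.19 and 2.02 ± 0.21). IRX4, a ventricular factor, went from 0.842 and 0.404 to 16.4 and 14.1 FPKM (3.33 ± 0.21, adjusted p = 4.05e-06). HAND1 and TBX2, regulators of early chamber and of cushion muscle, rose by 1.15 ± 0.13 and 1.44 ± 0.14. GATA4 (47.3 and 36.2 FPKM at day 7 and 55.5 and 45.6 FPKM at day 15), GATA6 (-0.023) and TBX3 (-0.10) were not called. ISL1, a progenitor factor of the second heart field, measured 25.6 and 24.2 FPKM at day 7 and 18.4 and 18.6 FPKM at day 15 and was called lower (-0.41 ± 0.12, adjusted p = 0.0282), a call that each of the 4 leave-one-out fits lost, at -0.37 to -0.45.

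Atrial and ventricular markers rose together. Of 11 atrial genes 8 were higher and none lower (median 1.32), and of 7 ventricular genes 6 were higher and 1 lower (median 1.31). NPPA, the atrial natriuretic peptide, measured 2.09 and 2.9 FPKM at day 7 and 40.2 and 39.7 FPKM at day 15 (3.56 ± 0.17, adjusted p = 7.74e-07). On the ventricular side CKM, the muscle creatine kinase, measured 2.39 and 2.1 FPKM at day 7 and 26.4 and 24.1 FPKM at day 15, and the fall was in GJA1, the main ventricular gap-junction protein, from 213 and 210.5 to 129 and 119 FPKM (-0.77 ± 0.10, adjusted p = 0.000325).

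Chamber and maturation genes gave 8 higher and 1 lower of 11 (median 1.82). HSPB7, a small heat-shock protein that protects thin filaments, measured 10.7 and 6.64 FPKM at day 7 and 149.8 and 117 FPKM at day 15, an increase in every day 15 library over either day 7 library (3.82 ± 0.19, adjusted p = 1.22e-06). Myoglobin, MB, measured 8.66 and 8.36 FPKM at day 7 and 39.5 and 27 FPKM at day 15 (1.82 ± 0.24, adjusted p = 0.000343). The heart fatty-acid carrier FABP3 rose from 4.96 and 5.29 to 30 and 43.1 FPKM and the caveolar protein POPDC2 from 17.3 and 9.73 to 84.5 and 61.3. NPPB was not analysed here. The thick-filament, ion channel, transcription factor, atrial, ventricular and chamber lists share members, so their counts are not separate results. Among the shared genes are MYH7, MYL7, MYL4, NPPA, KCNJ3, TBX5, IRX4, HAND1 and CKM. The 6 of 8 thick-filament, 6 of 7 ventricular and 8 of 11 chamber genes called higher were the same counts in every fit that left out 1 of the 4 libraries.

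Because E proteins bind E-boxes, the 250 bases before the start of 3 of these risers are printed as RefSeq gives them on GRCh38.p14, with every CANNTG in capitals. TNNT2 (chr1:201377681-201377930, minus strand), ACTN2 (chr1:236686249-236686498, plus strand) and NPPA (chr1:11847784-11848033, minus strand) are written 5′ to 3′ on the strand of the gene.
TNNT2: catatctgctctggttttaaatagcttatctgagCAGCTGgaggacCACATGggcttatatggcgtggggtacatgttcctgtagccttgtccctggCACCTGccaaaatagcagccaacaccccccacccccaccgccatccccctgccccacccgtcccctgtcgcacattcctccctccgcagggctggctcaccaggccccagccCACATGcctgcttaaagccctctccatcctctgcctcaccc
ACTN2: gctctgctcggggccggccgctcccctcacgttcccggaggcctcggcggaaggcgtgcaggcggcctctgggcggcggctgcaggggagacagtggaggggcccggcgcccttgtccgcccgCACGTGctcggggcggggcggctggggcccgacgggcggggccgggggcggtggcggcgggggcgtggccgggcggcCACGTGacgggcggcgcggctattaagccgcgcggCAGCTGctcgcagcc
NPPA: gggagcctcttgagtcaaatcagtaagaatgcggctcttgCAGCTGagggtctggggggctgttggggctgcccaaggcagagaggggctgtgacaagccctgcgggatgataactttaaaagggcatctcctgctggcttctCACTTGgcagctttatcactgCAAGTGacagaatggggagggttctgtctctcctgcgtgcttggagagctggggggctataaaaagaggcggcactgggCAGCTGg
These windows hold 4, 3 and 4 E-boxes. CANNTG reads the same in both directions, so 1 strand covers both. Over the list, 30 promoters matched 19 of the 28 contractile genes, and 76.7% of them held at least 1 E-box, against 54.4% of 16039 promoters matched to 10910 tested genes and 54.8% of promoters of genes called higher. The letters CAGCTG, one form of the E-box, were in 16.7% of contractile promoters and in 13.2% of all. A match describes the letters of the window and no more.

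Glycolysis genes rose by small but repeated steps. Of 27 tested, 22 were higher and 1 was lower, with a median of 0.57. SLC16A3, which exports lactate, measured 84.6 and 59.6 FPKM at day 7 and 326 and 249.6 FPKM at day 15 (1.99 ± 0.20, adjusted p = 6.57e-05), and SLC2A1, a glucose importer, 196 and 176 FPKM at day 7 and 533 and 393 FPKM at day 15 (1.3 ± 0.14). HK2, which traps glucose in the cell, and PFKFB4, which makes an activator of glycolysis, rose by 1.41 ± 0.12 and 1.86 ± 0.18. BNIP3, a hypoxia-inducible gene of mitochondrial turnover, rose from 41.7 and 44 to 124 and 149 FPKM. ENO1, the abundant enolase, measured 821 and 792 FPKM at day 7 and 1341 and 1075 FPKM at day 15 (0.57 ± 0.12, adjusted p = 0.00529). ENO2, the neuronal enolase, was the gene that fell (-0.51 ± 0.12, adjusted p = 0.0102). Summed over the list, the level was 7277 and 7017 FPKM at day 7 and 11176 and 9555 at day 15, with no overlap. The count rests on the shared estimate of spread, since a fit on the 4 libraries alone called 9 of these genes higher and none lower.

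The 13 protein-coding genes of the mitochondrial genome went the other way, with none higher, 10 lower and a median of -0.68. MT-ND1, a subunit of complex I, measured 3365 and 3346 FPKM at day 7 and 2112 and 1823 FPKM at day 15 (-0.77 ± 0.11, adjusted p = 0.000526), and MT-CO2, a subunit of cytochrome oxidase, 4444 and 3869 FPKM at day 7 and 2425 and 2389 FPKM at day 15 (-0.78 ± 0.11). Both were lower in each day 15 library. MT-CYB, at 1886 and 1752 FPKM at day 7 and 2019.6 and 1853 FPKM at day 15, was not called (adjusted p = 0.661). Nuclear copies of mitochondrial genes can draw the same reads, and the calls came to 6 without day 7 replicate 1 and to 3 when the 4 libraries were fitted by themselves. Their sum was 113516 and 93239 FPKM at day 7 and 72021 and 62647 at day 15.

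Nuclear genes of oxidative phosphorylation gave 13 higher and 1 lower of 39 (median 0.33), 4 higher without day 7 replicate 1 and 7 without day 15 replicate 2. ATP5G1, a ring subunit of ATP synthase, rose from 20.7 and 17.9 to 42.5 and 36.6 FPKM (1.0 ± 0.14, adjusted p = 0.000595). In fatty-acid use, 9 of 23 genes were higher and 1 lower (median 0.36). CPT1A, the gate of fatty acids into mitochondria in most tissues, rose from 0.775 and 0.856 to 5.11 and 3.87 FPKM, and ESRRG, a nuclear receptor of cardiac energy genes, from 1.34 and 1.22 to 6.95 and 10.1. CPT1B, the muscle form of the same gate, measured 25.7 and 28.7 FPKM at day 7 and 18.1 and 17.8 FPKM at day 15, a fall (-0.57 ± 0.16, adjusted p = 0.0205) that was lost without day 7 replicate 2 (-0.49) or day 15 replicate 2 (-0.56). Sterol and lipid synthesis had a median of -0.0048, with 2 of 21 genes higher and 4 lower, with 1 higher and 0 lower without day 7 replicate 1, 0 and 2 without day 7 replicate 2 or day 15 replicate 2, and 1 and 4 without day 15 replicate 1.

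**Figure D2:**
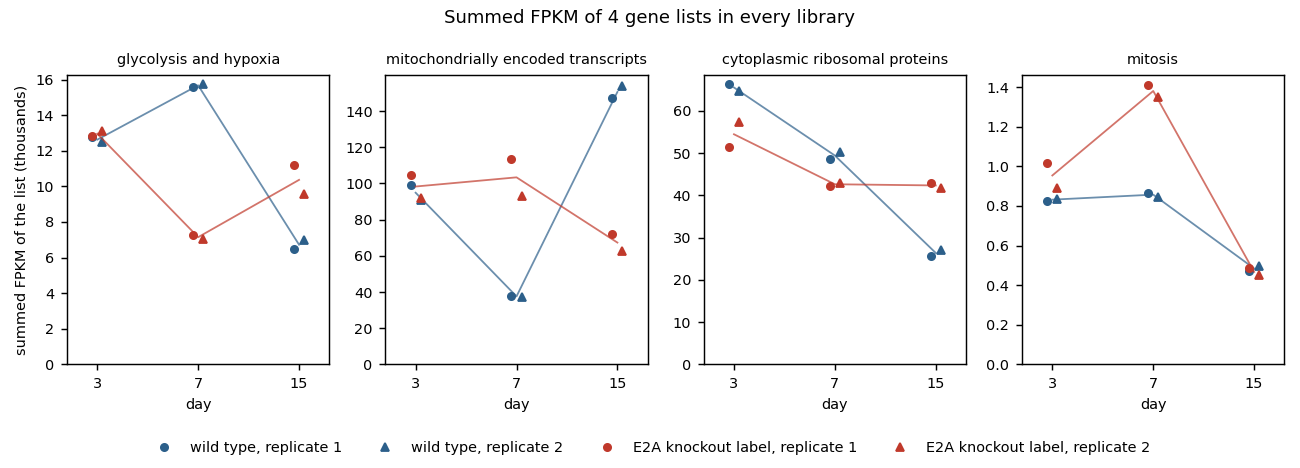
Summed FPKM (axis in kilo-FPKM) of glycolysis, mitochondrially encoded, ribosomal protein and mitosis genes against day, each point 1 library, knockout-labelled in red and wild type in blue. From day 7 to day 15 the red glycolysis points rise where the blue ones fall, and the red mitochondrial points fall where the blue ones rise.

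Mitosis genes fell as a group: 21 of 22 were lower and none higher, with a median of -1.38. CDC20 (chr1:43358955-43363203, plus strand), which turns on the ligase that ends metaphase, measured 101 and 105 FPKM at day 7 and 23.1 and 20.3 FPKM at day 15, and both later values were far below both earlier ones (-2.2 ± 0.11, adjusted p = 1.22e-06). CCNB2 and CCNB1, the mitotic cyclins, fell from 65.2 and 60.5 to 20.8 and 20.3 FPKM and from 103 and 123 to 38 and 41.8 FPKM. The spindle motor KIF20A changed by -2.18 and the spindle assembly factor TPX2 by -1.43. MKI67, the usual marker of dividing cells, measured 38.8 and 35.3 FPKM at day 7 and 14.5 and 12.5 FPKM at day 15 (-1.39 ± 0.16, adjusted p = 0.000186). It was lower but still present at day 15. CENPE, a kinetochore motor, was the exception at 4.61 and 3.68 FPKM at day 7 and 1.02 and 3.06 FPKM at day 15 (adjusted p = 0.0539), and without day 15 replicate 2 it too was called, at -1.34. Leaving out 1 library at a time, 20 or 21 of these genes were lower.

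Genes of DNA replication moved less. Of 23 tested, 9 were lower and 1 higher (median -0.44), and the lower calls were 3 without day 7 replicate 1, 6 without day 7 replicate 2 and 4 without day 15 replicate 2. CDT1, which licenses origins, fell from 36.7 and 41.2 to 19.2 and 12.6 FPKM (-1.27 ± 0.18, adjusted p = 0.00056), whereas PCNA, the sliding clamp, stood at 40.8 and 43.9 FPKM at day 7 and 37.2 and 39.5 FPKM at day 15 and was not called. Of 15 cyclin-dependent kinase inhibitor and p53 target genes 4 were higher and 1 lower, or 2 and 1 without day 7 replicate 1 and 3 and 2 without day 15 replicate 1. Over all genes the shares were 13.3% higher and 15.1% lower. CDKN1A, the inhibitor that p53 induces, was at 0.776 and 0.487 FPKM at day 7 and 0.797 and 0.533 FPKM at day 15, low at both times. Replication histone genes, whose transcripts lack the usual tail in dividing cells, gave 2 higher and 2 lower of 11 (1 and 1 without day 15 replicate 1, 2 and 3 without day 15 replicate 2, 2 and 1 and then 1 and 2 without day 7 replicates 1 and 2), and HIST1H4C fell from 90.6 and 172 to 50.5 and 28.7 FPKM.

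Many mitosis promoters carry a CCAAT box, bound by NF-Y, near the letters TTTGAA of the cell-cycle homology region, so the same 250 bases are shown for CDC20 (chr1:43358731-43358980, plus strand) and CCNB2 (chr15:59104896-59105145, plus strand), with CCAAT or ATTGG and TTTGAA or TTCAAA in capitals.
CDC20: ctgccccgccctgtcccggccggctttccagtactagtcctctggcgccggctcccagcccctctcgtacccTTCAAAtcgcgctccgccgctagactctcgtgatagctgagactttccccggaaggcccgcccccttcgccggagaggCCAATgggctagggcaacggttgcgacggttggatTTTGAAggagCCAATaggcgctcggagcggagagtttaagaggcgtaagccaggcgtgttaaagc
CCNB2: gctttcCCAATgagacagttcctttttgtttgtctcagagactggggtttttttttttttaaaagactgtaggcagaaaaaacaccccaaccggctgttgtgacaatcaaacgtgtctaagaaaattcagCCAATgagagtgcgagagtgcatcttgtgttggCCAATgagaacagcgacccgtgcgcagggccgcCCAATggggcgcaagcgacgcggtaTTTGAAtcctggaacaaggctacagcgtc
CDC20 holds 2 CCAAT and 2 TTTGAA matches and CCNB2 4 and 1, counted on both strands. Of 19 promoters matched to 17 of the 22 mitosis genes, 84.2% held CCAAT and 52.6% TTTGAA. The shares were 32.5% and 8.85% over all 16039 promoters, and 36.4% and 9.40% over promoters of the genes called lower. The share in the list describes promoters of known mitosis genes and says nothing of a factor's activity in these cells.

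Pluripotency genes fell further from a level that was still measurable at day 7. Of 11 tested, 10 were lower and none higher (median -1.53), the same counts in every leave-one-out fit. POU5F1, the best known factor of the pluripotent state, measured 130.4 and 114 FPKM at day 7 and 39.1 and 27.5 FPKM at day 15 (-1.86 ± 0.20, adjusted p = 0.000101). LIN28A, which blocks maturation of let-7 microRNAs, measured 852 and 795 FPKM at day 7 and 366 and 333 FPKM at day 15, the most abundant of the list at both times (-1.24 ± 0.10). DPPA4 and DNMT3B, a chromatin factor and a DNA methyltransferase of early embryos, changed by -2.13 ± 0.13 and -2.39 ± 0.20. LIN28B, at 27.7 and 25.4 FPKM at day 7 and 19.2 and 26.3 FPKM at day 15, was not called. NANOG was not analysed here.

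Neural genes fell in part, 7 lower and 2 higher of 15. SOX21, a neural progenitor factor, measured 35.7 and 38.3 FPKM at day 7 and 2.11 and 2.71 FPKM at day 15, a steep drop in each day 15 library (-3.48 ± 0.18, adjusted p = 1.22e-06). SOX2, shared by pluripotent and neural cells, fell from 153 and 157 to 39.8 and 55.6 FPKM, and the neuronal tubulin TUBB3 from 68.6 and 72.5 to 28.8 and 26.5. OTX2, a forebrain factor, stood at 78.6 and 68.2 FPKM at day 7 and 72.1 and 53.6 FPKM at day 15 and was called only without day 15 replicate 1 (-0.44), and GAP43, a growth-cone protein, rose from 5.32 and 5.26 to 17.7 and 16.8 FPKM. In the neural crest list 1 of 7 genes was higher and 1 lower, the latter not without day 7 replicate 1. Among mesoderm genes 3 of 12 were higher and 2 lower, beside 13.3% higher and 15.1% lower over all genes. The falls were in APLNR, a receptor of mesoderm progenitors, from 90 and 70.3 to 17.2 and 11.9 FPKM, and in PDGFRA.

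**Figure D3:**
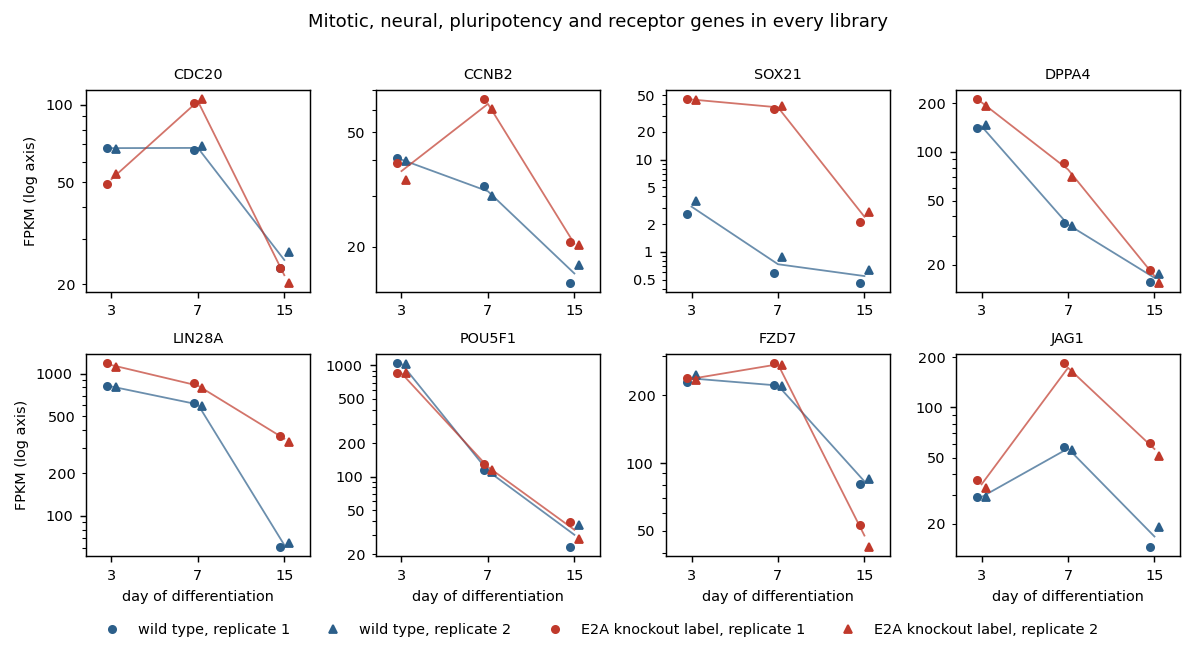
Level in FPKM (log axis) of 8 genes called lower at day 15 than at day 7 in the knockout-labelled libraries, by day, each point 1 library, knockout-labelled in red and wild type in blue, lines joining group means. Both red points at day 15 lie below both at day 7 in each panel; SOX21 goes from 35.7 and 38.3 to 2.11 and 2.71 FPKM, above the blue points of the same days.

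The labelled cell type was read from 8 defining markers of heart muscle. All 8 were higher at day 15, and their summed level was 1254 and 1132 FPKM at day 7 and 3963 and 3240 at day 15, against 6536 and 6552, then 8999 and 9836, in the wild type. These markers are members of the contractile, calcium and transcription factor lists counted above, so their calls are not a separate result. Not every member of those lists rose, as TNNI3, ATP2A2, GATA4 and DES were not called and TNNT1 and ISL1 were called lower. Markers of other cells moved as well. The sum of pluripotent markers (3 of 4 listed) went from 989 and 916 to 406 and 362 FPKM, neural markers (5 of 7 listed) from 192 and 197 to 44.1 and 60.7, and fibroblast or epicardial markers (3 of 8 listed) from 63.6 and 52.5 to 22.8 and 17.4. The last sum is nearly all PDGFRA, at 62.6 and 51.7 FPKM at day 7 and 21.5 and 16 FPKM at day 15, the 1 of the 3 that was tested, and in the longer fibroblast and epicardial list 2 genes were higher and 2 lower of 7. The neural sum is nearly all SOX2, which is also in the pluripotency list, and SOX21. In the longer neural list 7 genes were lower and 2 higher of 15 (median -0.23). Epithelial markers (4 of 4) held 767 and 742 FPKM at day 7 and 604 and 508 at day 15, and smooth muscle markers (6 of 6) went from 196 and 172 to 476 and 397. Endothelial markers (4 of 6) were at 13.3 and 12.2, then 21.5 and 19.8 FPKM, endoderm markers (3 of 6, without AFP, ALB or TTR) at 34.8 and 33.6, then 29.7 and 31.7, and neural crest markers (2 of 4) at 23.3 and 16.7, then 10.3 and 13.2. The near-level endoderm sum covers opposite moves, with 1 of the 3 markers called higher and 1, FOXA2, lower. Skeletal muscle markers (1 of 5) stayed below 2 FPKM, and the 6 blood markers were not analysed here. What part of the changes in the gene lists goes with these other cells was not tested.

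In the signalling lists, most NOTCH genes fell, and more BMP, activin and TGF-beta genes rose than fell. Of 16 NOTCH genes 11 were lower and 2 higher (median -0.90), or 7 and 2 in a fit on the 4 libraries alone. The ligand JAG1 measured 184 and 163 FPKM at day 7 and 61.5 and 51.2 FPKM at day 15, with both later values below both earlier ones (-1.6 ± 0.15, adjusted p = 3.88e-05). The receptors NOTCH1 and NOTCH3 changed by -1.15 ± 0.15 and -1.17 ± 0.14, and the feedback target NRARP fell from 20.4 and 21.2 to 7.32 and 6.81 FPKM. HEY1 and HEY2, targets that are also chamber factors, were the 2 that rose (1.18 and 1.06). DLK1, a membrane protein related to NOTCH ligands, measured 261 and 257 FPKM at day 7 and 94.3 and 79.9 FPKM at day 15 (-1.56 ± 0.13, adjusted p = 2.49e-05).

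Of 24 BMP and TGF-beta genes 13 were higher and 2 lower (median 0.46), or 10 and 1 without day 7 replicate 1 and 13 and 1 without day 15 replicate 2. The ligands BMP5, at 5.13 and 5.3 FPKM at day 7 and 22.4 and 26.3 FPKM at day 15, and BMP7, at 20.6 and 20.2 FPKM at day 7 and 62 and 51.9 FPKM at day 15, rose, and so did the secreted inhibitor NOG (1.61). BMP4 stood at 84.8 and 77.8 FPKM at day 7 and 79.3 and 64.6 FPKM at day 15 and was not called. INHBA, the activin subunit, went from 0.271 and 0.0478 to 2.31 and 2.49 FPKM, and FST, which traps activin, fell from 51.9 and 53.2 to 25.5 and 31.4 FPKM. Of 7 E-protein and ID genes 3 were called higher, ID1, ID2 and ID4, and the higher calls came to 1, 0, 2 and 1 without day 7 replicates 1 and 2 and day 15 replicates 1 and 2 in turn, with 1 lower call in the third of these fits. ID1, a direct BMP target, measured 336 and 311 FPKM at day 7 and 441 and 389 FPKM at day 15, and ID2 175 and 185 FPKM at day 7 and 227 and 274 FPKM at day 15, in both cases with day 15 above day 7. The ID genes are also members of the BMP and TGF-beta list, so the same calls are counted in both lists.

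WNT genes were mixed, 8 higher and 6 lower of 23. The receptor FZD7, abundant in pluripotent cells, measured 278 and 273 FPKM at day 7 and 52.9 and 42.4 FPKM at day 15, the largest fall of the list (-2.51 ± 0.11, adjusted p = 5.71e-07). SFRP1, a secreted WNT antagonist, fell from 161 and 148 to 65.7 and 59.9 FPKM. AXIN2, a standard target of the beta-catenin branch, rose from 18.9 and 22.8 to 59.7 and 52.8 FPKM, as did RSPO3, a secreted amplifier, from 2.99 and 2.5 to 14.1 and 18.6. Retinoid genes gave 4 higher and 4 lower of 15 (5 and 2 without day 15 replicate 2), with RXRG, a retinoid X receptor, going from 0.468 and 0.852 to 14.5 and 11.5 FPKM and CRABP1, a retinoic acid carrier, from 146 and 152 to 45 and 47.1.

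Matrix genes were divided, 11 higher and 11 lower of 28 (median -0.32, or -0.019 without day 15 replicate 2). Among laminin chains LAMA1, of the embryonic basement membrane, measured 119 and 111 FPKM at day 7 and 31.2 and 32.7 FPKM at day 15 and fell (-1.81 ± 0.10), whereas LAMA2, of the muscle basement membrane, measured 0.175 and 0.315 FPKM at day 7 and 8.08 and 7.16 FPKM at day 15 and rose (2.79 ± 0.21). The collagen VI chain COL6A2 went from 133 and 124 to 68.8 and 55.3 FPKM, and the fibrillin FBN2 rose from 92.8 and 78.4 to 268 and 219.6 FPKM. In the smooth muscle list 5 of 12 were higher and 3 lower (0 lower without day 7 replicate 1, 1 without day 15 replicate 2), and TAGLN, an actin-binding protein also made by young cardiomyocytes, rose from 78 and 74.3 to 223 and 202 FPKM. Fibroblast and epicardial genes gave 2 higher and 2 lower of 7, with DDR2, a collagen receptor, going from 0.234 and 0.442 to 8.77 and 9.22 FPKM and PDGFRA from 62.6 and 51.7 to 21.5 and 16. Of 12 endothelial genes 2 were higher and none lower (1 higher without either day 7 replicate), of 16 epithelial genes 3 were higher and 2 lower (2 and 5 without day 15 replicate 1), and of 10 endoderm genes 2 were higher and 3 lower, among the latter FOXA2, a pioneer factor of endoderm, from 21.5 and 20.8 to 5.85 and 4.86 FPKM. Over all genes 13.3% were higher and 15.1% lower, so the endothelial and epithelial counts of higher genes are near the background. KRT19, a keratin, fell from 581 and 581 to 450.1 and 380.0 FPKM.

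Few ribosomal protein genes were called, none higher and 2 lower of 34 with a median of 0.033, and summed to 42298 and 42922 FPKM at day 7 and 42905 and 41755 at day 15. Without day 15 replicate 1 they gave 4 higher and 6 lower, and without any other of the 4 libraries at most 1 higher and 0 lower. Of 17 stress genes 5 were higher and 1 lower (5 and 3 without day 15 replicate 1), the former including ASNS, which makes asparagine (0.87 ± 0.14), and of 13 immediate early genes 3 were higher and 5 lower (3 and 3 without day 7 replicate 1, 2 and 3 without day 7 replicate 2, and 5 and 3 without day 15 replicate 2, where the higher calls outnumbered the lower). HLA-B, a class I antigen-presenting chain that shares sequence with its relatives, fell from 52 and 40.9 to 9.91 and 8.34 FPKM in an interferon list of 2 higher and 6 lower of 17, with 1 higher and 5 to 7 lower when a library was left out.

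**Figure D4:**
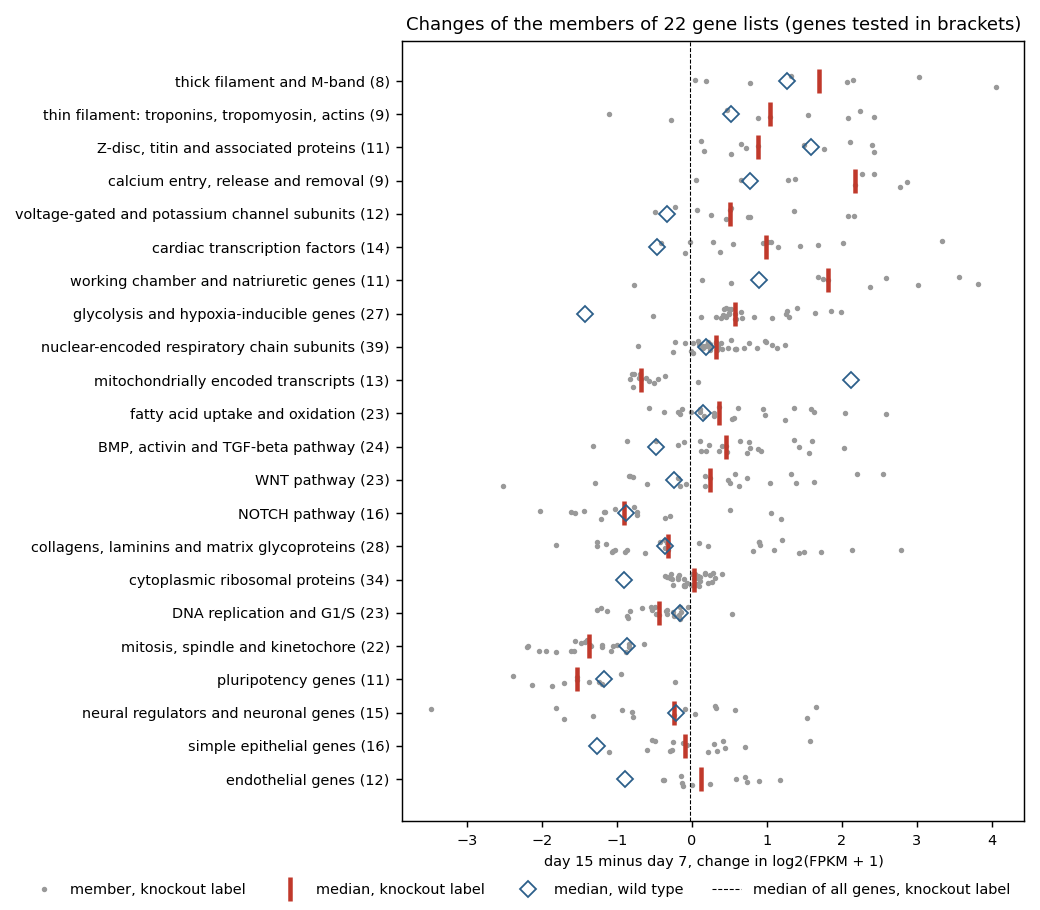
Change from day 7 to day 15 in log2(FPKM + 1) for the members of 22 gene lists, each dot 1 gene in the knockout-labelled libraries, bars their median, diamonds the wild-type median, and the dashed line the median of all genes tested (-0.03). Calcium, chamber and thick-filament lists stand on the right (medians 2.18, 1.82 and 1.70) and pluripotency and mitosis lists on the left (-1.53 and -1.38).

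By size, the largest rise was that of MASP1, a complement-activating protease, at 1.17 and 0.818 FPKM at day 7 and 59 and 47.3 FPKM at day 15 (4.76 ± 0.17, adjusted p = 2.84e-07). Next to MYH7, HSPB7 and NPPA stood TRH, the thyrotropin-releasing hormone precursor (3.97), the lens connexin GJA3 (3.81), the GABA receptor subunit GABRP (3.66), FAM189A2 (3.61), the muscle-tendon collagen COL22A1 (3.51) and the elongation factor TCEA3 (3.47). TRH measured 0.862 and 1.19 FPKM at day 7 and 31.9 and 29.4 FPKM at day 15, absent or nearly so at day 7 and plain in both later libraries. The largest falls included neural genes: CBLN2, a synaptic organizer, at 27.8 and 25.8 FPKM at day 7 and 1.32 and 0.963 FPKM at day 15, POU3F1, a POU factor of neural and epiblast cells (-3.52), SOX21, the neuronal splicing factor RBFOX3 (-3.39), BRINP2 (-2.94) and FOXB1, a forkhead factor of the brain (-2.93). PAPLN (-3.07), VRTN (-2.93) and 2 genes known by clone names, RP11-148B6.1 (-3.14) and AC009133.17 (-3.05), complete the 10 falls.

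The wild-type libraries share none with this comparison, so both courses can be set side by side. In the wild type 8517 genes were called (52.3%), 4149 higher (25.5%) and 4368 lower (26.8%). Of the genes higher in the knockout-labelled course, 1026 were also higher in the wild type, 47.3% of the former and 24.7% of the latter list. The shared falls were 1281 genes, 52.1% and 29.3%. In 332 genes the knockout-labelled course rose where the wild type fell, and in 312 the reverse. The difference was called in all 644, which choosing genes called in opposite directions in the same fit makes nearly certain. Across genes the changes correlated with Pearson's r = 0.367 and Spearman's rho = 0.340, a description over 16295 genes that are not independent. The difference of the courses itself was called for 5173 genes (31.7%), 2698 positive (16.6%), meaning a larger rise or smaller fall in the knockout-labelled course, and 2475 negative (15.2%).

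Of 28 contractile genes 21 were higher in each course, with 1 lower in the knockout-labelled and 3 lower in the wild-type libraries. The difference of the courses was called for most of them, positive for 10 and negative for 9. MYH7 rose in the wild type too, from 31.1 and 29.3 to 395 and 462 FPKM, and the difference of the courses was 0.28 ± 0.24 (adjusted p = 0.406). That difference depends on the pseudocount of 1, as MYH7 was below 1 FPKM at day 7 in the knockout-labelled libraries. With a pseudocount of 0.1 the knockout-labelled rise was 5.21 in place of 4.06, so equal courses cannot be read from it. The MYH7 level in the knockout-labelled libraries at day 15 was close to that of the wild type at day 7. MYH6 fell in the wild type from 1921 and 1848 to 632 and 702 FPKM, a difference of 2.27 ± 0.18 (adjusted p = 2.3e-05). HSPB7 was already at 135 and 140.3 FPKM in the wild type at day 7 and 126 and 127 at day 15 (difference 3.94 ± 0.27), and SLC8A1 at 73.8 and 67.7 and 81.1 and 78.2 FPKM (2.7 ± 0.21). At day 15 the knockout-labelled libraries thus lay on either side of the wild-type day 7 values for HSPB7 and above them for SLC8A1. SYNPO2L, a Z-disc protein, moved the other way, flat at 10.3 and 10.6 FPKM at day 7 and 12.7 and 11 FPKM at day 15 in the knockout-labelled libraries and rising from 17.7 and 18.4 to 138 and 151 FPKM in the wild type (-2.77 ± 0.36, adjusted p = 0.000394), and DES behaved likewise (-1.81 ± 0.28).

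Heart transcription factors and channels differed in the positive direction, 9 of 14 and 10 of 12 with none negative. NKX2-5 fell in the wild type from 204 and 223 to 123 and 149 FPKM (difference 2.34 ± 0.27), and TBX5 was low there at 4.88 and 4.41 and 2.3 and 2.62 FPKM (2.73 ± 0.29). NPPA, from 74 and 82.1 to 147 and 181 FPKM in the wild type, gave 2.5 ± 0.24, and HCN4, from 13.2 and 13.6 to 15 and 17.5, gave 1.83 ± 0.23. IRX4 stayed below 3 FPKM in the wild type at both days (2.52 ± 0.29).

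Glycolysis and mitochondrial genes ran in opposite directions in the 2 genotypes. In the wild type 23 of 27 glycolysis genes fell and 2 rose (median -1.42), and the difference was positive for 25 and negative for none. PFKFB4 fell from 47.3 and 47.6 to 7.62 and 12 FPKM (difference 4.05 ± 0.25) and SLC16A3 from 349 and 362 to 75.4 and 102 (4.0 ± 0.28). All 13 mitochondrially encoded genes rose in the wild type (median 2.12), and all 13 differences were negative, MT-ND1 by -3.07 ± 0.15 (adjusted p = 2.44e-06). Their share of all FPKM moves the scale of every other gene in a library. With scaling on the nuclear-encoded sum 5567 differences were called, 37.7% of them positive against 52.2% of the 5173, and the median difference over all genes moved from -0.01 to -0.17. Ribosomal protein genes fell in the wild type in 27 of 34 (median -0.91), with 28 positive differences.

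**Figure D5:**
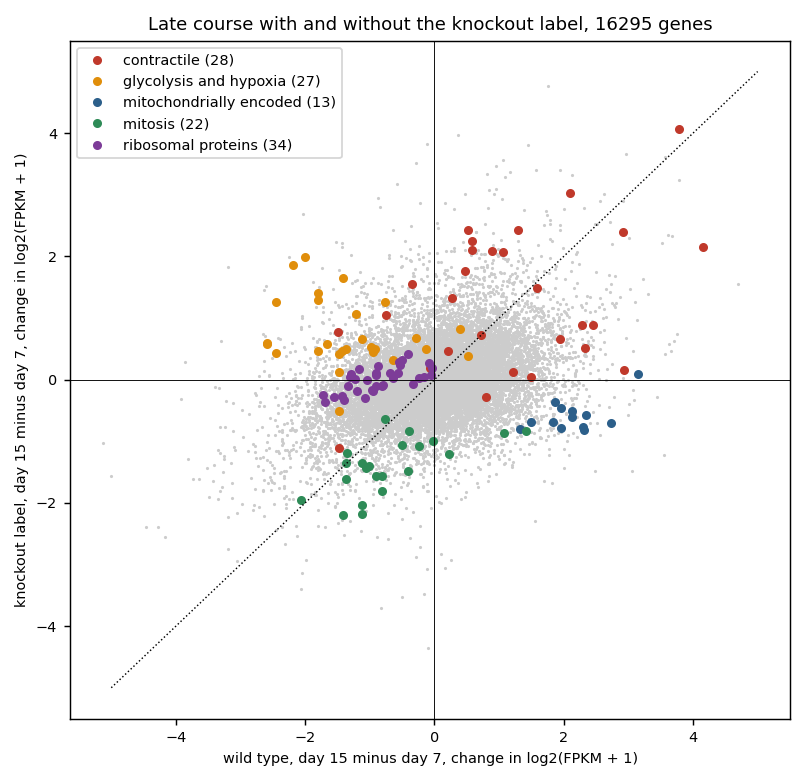
Change from day 7 to day 15 in the wild type (x axis) against the knockout-labelled libraries (y axis), both in log2(FPKM + 1), each point 1 of 16295 genes, members of 5 lists coloured, the dotted line marking equal change. Most glycolysis genes lie left of 0 and above 0, mitochondrially encoded genes right of 0 and mostly below it, and mitosis genes below 0.

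Among genes that fell in the knockout-labelled course, pluripotency genes were lower in 9 of 11 in the wild type (median -1.17), and POU5F1 fell there from 114 and 111 to 23.4 and 36.7 FPKM, with a difference of 0.041 ± 0.28 (adjusted p = 0.924). LIN28A fell further in the wild type, from 619 and 596 to 60.7 and 64.3 FPKM (2.02 ± 0.13). DLK1 did so more strongly, from 435 and 466 to 14 and 12.2 FPKM (3.44 ± 0.18), and remained abundant in the knockout-labelled libraries. NOTCH genes fell in the wild type as well, with 12 lower and 1 higher of 16 (median -0.87). Their difference of the courses was positive for 5 and negative for none. Mitosis genes fell in 16 of 22 in the wild type, and the difference was negative for 13 of them, CDC20 among them (66.7 and 69, then 23.2 and 26.6 FPKM in the wild type, -0.78 ± 0.16). SOX21 was below 1 FPKM in each wild-type library of day 7 and day 15 (difference -3.32 ± 0.26). INHBA rose in the wild type from 0.437 and 0.11 to 28.7 and 34.7 FPKM (-3.13 ± 0.34) and FST from 16.3 and 19.8 to 79.8 and 86.9 (-3.02 ± 0.20), against the fall of FST in the knockout-labelled libraries. KRT19 fell in the wild type from 2604 and 2638 to 321 and 340.1 FPKM (2.5 ± 0.15).

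The comparison of day 15 knockout with day 15 wild type shares its day 15 libraries with the course described here, and the comparison of day 7 with day 3 shares its day 7 libraries, so only levels are set beside each other. At day 15 NPPA stood at 40.2 and 39.7 FPKM in the knockout-labelled and 147 and 181 in the wild-type libraries, TNNT2 at 1070.5 and 735 and 1479 and 1622, ACTN2 at 91.3 and 70.2 and 289 and 303, and NKX2-5 at 155 and 131 and 123 and 149. At day 3 of the knockout-labelled course TNNT2 stood at 1.22 and 0.537 FPKM and CDC20 at 49.1 and 53.5.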

How the data were processed

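RNA was extracted with Trizol and 1 ug of total RNA was sequenced on the HiSeqX10, per the labels. The authors deposited 1 gene table per library with FPKM values, made after alignment with BWA to hg38 per the submitters' processing notes; the unit is read from the values, which are not whole and have no fixed sum. The counting step is not given in the sources used here, nor is read depth, so no counting interval is printed. None of the 17096 genes listed had a value of 0 in any library. List counts, marker sums and shares of all genes thus cover only genes with a value above 0 in all 12 libraries. Genes at 1 FPKM or more in at least 2 of the 12 libraries were kept (16295; 801 of 17096 were left out), values were transformed to log2(FPKM + 1), and limma 3.58.1 (R 4.3.3) with an intensity trend was fitted to the 6 group means, leaving 6 residual degrees of freedom. Tests are two-sided with Benjamini-Hochberg adjustment at 0.05, and the script was checked on simulated data. Gene places come from GENCODE on GRCh38, promoters from RefSeq on GRCh38.p14.

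The genes and lists described were chosen with earlier results of these data known. Of 695 different genes in 41 lists, some of them in several lists, 583 were in the tables and 578 were tested. The 22 symbols turned into dates and 7 listed more than once were not named. Genes are named where they were among the 10 largest rises or falls (higher group averaging 5 FPKM or more, no overlap between days), the 6 largest differences of the courses in each direction, a fixed panel of heart genes, up to 5 called members per list by adjusted p, or other members needed to account for a list. A few genes that these rules pick are not reported here. MKI67, POU5F1, ENO1 and PCDH19 were named after their values were seen. Alternatives were 2 other scalings, another filter or none, a pseudocount of 0.1, limma without trend or with array weights, fits on fewer groups, a replicate block, and each library left out.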

Additional observations from a re-analysis of the deposited data

Results flagged for a closer look

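The changes from day 7 to day 15 differed between the genotypes by the interaction term of the limma fit, in log2(FPKM + 1), knockout-labelled minus wild type, for each gene in this section at an adjusted p below 0.05. Among the largest positive differences were those of MB (5.02), CAPN3 (4.25), FAM19A4 (4.14), AC009014.3 (4.13) and RIPPLY3 (4.11). MB, myoglobin, rose in the knockout-labelled libraries as reported and fell in the wild type from 56.8 and 62.7 to 5.76 and 5.49 FPKM. CAPN3, the muscle calpain, stood at 4.19 and 4.27 FPKM at day 7 and 20.4 and 19.3 FPKM at day 15 in the knockout-labelled libraries against 65.5 and 63.1 FPKM at day 7 and 12.2 and 13.2 FPKM at day 15 in the wild type. RIPPLY3 fell in both genotypes, to 18.6 and 19.6 FPKM and to 1.68 and 1.43 FPKM.

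The largest negative differences were those of MKKS (-4.77), POU4F1 (-4.53), RPS20P22 (-3.95), RPS20P33 (-3.84), CHAC1 (-3.74) and CPT1B (-3.57). MKKS, a chaperonin-like protein, stood at 9.0 and 147 FPKM at day 7 and 5.53 and 41.1 FPKM at day 15, so that the replicates of each day lay further apart than the days, and its adjusted p of 0.0495 was above 0.05 without 6 of the 8 libraries in turn. RPS20P22 and RPS20P33 are pseudogenes of a ribosomal protein gene whose reads may not be told apart from those of the parent. POU4F1, a sensory neuron factor, fell to 0.488 and 0.605 FPKM in the knockout-labelled libraries and rose to 11.3 and 13.3 FPKM in the wild type. CHAC1, a stress-induced glutathione-degrading enzyme, stood at 8.79 and 10.6 FPKM at day 7 and 9.28 and 6.45 FPKM at day 15 against 2.54 and 2.34 FPKM at day 7 and 34.1 and 39.3 FPKM at day 15, and CPT1B rose in the wild type from 6.48 and 6.3 to 55.7 and 60.6 FPKM.

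Among heart genes the differences were 3.94 for HSPB7, 2.73 for TBX5, 2.7 for SLC8A1, 2.52 for IRX4, 2.5 for NPPA, 2.34 for NKX2-5, 2.27 for MYH6 and 1.83 for HCN4. Z-disc genes gave -2.77 for SYNPO2L and -1.81 for DES. In metabolism PFKFB4 gave 4.05, SLC16A3 4.0 and MT-ND1 -3.07. Genes that fell in the knockout-labelled course gave 3.44 for DLK1, 2.02 for LIN28A, 2.5 for KRT19, -0.78 for CDC20 and -3.32 for SOX21, and the activin genes -3.13 for INHBA and -3.02 for FST.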

How the results depend on the processing

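The count of 4628 genes in the knockout-labelled course was 2714 with array weights, 2054 in a fit on the 4 libraries alone, and 2915 to 4917 when 1 library was left out (2915 without day 7 replicate 1, 3094 without day 7 replicate 2, 4917 without day 15 replicate 1, 3493 without day 15 replicate 2). The wild-type count was 6401 to 9486 and the count of differences 3677 to 5630 over their alternatives. Scaling on the nuclear-encoded sum moved the share of higher calls in the wild type from 48.7% to 60.1%. Same-numbered knockout libraries of day 7 and day 15 deviated together (r = 0.206). The knockout pairs of day 3 with day 7 and day 3 with day 15 gave 0.155 and 0.103. The wild-type pairs of the same days lay between -0.035 and 0.017. The labels do not say whether same-numbered libraries share a culture or batch, and this was not tested. With the replicate block 4670 genes were called in the knockout-labelled course and 5289 differences. List medians near 0 changed sign: sterol 0.022 with median-ratio scaling, neural crest -0.0062 with nuclear-encoded scaling, retinoid 0.072 with a filter at 5 FPKM. With 1 library left out the medians ran from -0.045 to 0.056 for ribosomal, -0.12 to 0.22 for immediate early, -0.13 to 0.23 for epithelial, -0.32 to 0.35 for neural crest, -0.011 to 0.25 for mesoderm, -0.13 to 0.095 for retinoid and -0.24 to 0.26 for histone genes. The cause was not tested. Low genes are limited by an unknown read depth and by the pseudocount of 1.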

Other observations

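Positional and growth-related genes also moved, beside 13.3% of all genes called higher and 15.1% lower. Of 11 HOX, MEIS, PBX and TSHZ genes 5 were higher and none lower: HOXB3, an anterior HOX gene, went from 11.9 and 8.52 to 21.7 and 18.4 FPKM, and MEIS2, a partner of HOX proteins, from 63.7 and 39.1 to 121 and 104. Of 12 imprinted genes 5 were higher and 1, DLK1, lower (3 lower without day 15 replicate 1, 2 without day 15 replicate 2). The growth factor IGF2 stood at 41 and 31.7 FPKM at day 7 and 91.4 and 76.9 FPKM at day 15, and H19, the non-coding RNA that neighbours it, at 163 and 143 FPKM at day 7 and 332 and 296 FPKM at day 15. Both were higher in each day 15 library (1.19 ± 0.14 and 1.03 ± 0.13).

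Of 3 skeletal muscle genes tested, 2 were lower, PAX3, also a neural crest factor, from 26.6 and 25 to 13.3 and 12.9 FPKM and ACTN3, the fast-fibre alpha-actinin, from 40.4 and 39.6 to 28.3 and 18.7. Of 2 blood genes tested, RUNX1 was higher, from 0.113 and 0.29 to 2.85 and 1.87 FPKM.

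PCDH19, a protocadherin, was listed at 1019 and 0.972 FPKM in the day 7 knockout-labelled replicates and at 1.23 and 1.15 at day 15, with 0.363 and 0.495 in the wild type at day 7. The whole gap came from 1 library, and the change was not called (-4.35 ± 1.97, adjusted p = 0.124). The difference between the replicates was seen after the values were read and its cause was not tested.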
